A study of Ziziphus jujuba var. spinosa with 24 samples.

Results

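The glutathione transferase gene GSTU1 (LOC107409956), GMP (LOC107413212) and the polyphenol oxidase gene PPO (LOC107408734) were followed in leaves of sour jujube under drought. They were chosen by name, as the rows of the count table whose identifiers a RefSeq gene table pairs with these symbols, and are 3 of 32527 genes listed. All 3 were among the 25829 genes with enough counts to be tested. The 24 libraries were made from total RNA of leaves and formed 8 groups of 3. Diploid plants (labelled wild type) and autotetraploid plants, which carry a doubled chromosome set derived from the same diploid, were each sampled as untreated controls and after 6, 12 and 48 h of drought. Drought was imposed on rooted plantlets from tissue culture by the osmotic agent polyethylene glycol (PEG6000), in nutrient solution, raised in daily steps to a final 20%. The plants spent 30 days in tissue culture and 45 days in rooting medium, and both ploidies had been kept in culture over many generations, so every group stands for cultured material. The labels do not say how many independent plants or tetraploid lines were used. The labels leave out how the harvest times relate to the daily steps and at which hour of the day leaves were taken. Each ploidy had its control group without a stated time, and no untreated plants were labelled for 6, 12 or 48 h. Differences from the controls and between drought times therefore cannot be told apart from differences in sampling time or hour of day. Replicates carry only a number, and whether each is another plant is not stated. The p-values therefore rest on library-to-library spread, part or all of which may be technical.

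Tau-class glutathione transferases join the tripeptide glutathione to reactive compounds, and they are a large plant family often induced by stress and chemicals. GMP is the usual plant symbol of GDP-mannose pyrophosphorylase, which makes GDP-mannose from mannose 1-phosphate and GTP; in Arabidopsis this step feeds ascorbate synthesis as well as cell wall polysaccharides and protein glycosylation. Polyphenol oxidases use copper and oxygen to oxidise phenols to quinones, which brown wounded tissue; in most plants they sit in plastids, apart from the vacuolar phenols. The gene table gives symbols only, so that LOC107413212 encodes this pyrophosphorylase is assumed from its symbol. Its assembly, ASM3175591v1, is not known to be the one the counts were made on, so no positions are given. In that assembly 0 annotated genes overlap a member.

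A library held between 30750412 and 50404402 counts (median 37199250). The rubisco activase genes RCA1 and RCA2, which mark photosynthetic leaf tissue, were present in all 24 libraries, at 128 to 4898 CPM and 1603 to 17450 CPM. CPM is a count scaled to a common library size, here with each library's total rescaled by TMM (trimmed mean of M values). Mean correlations of a library with the others of its group lay between 0.916 and 0.943, the lowest in replicate 3 of the autotetraploid at 12 h. This library also held the highest GSTU1 and PPO levels and the lowest GMP level of the series. Values without it are given beside several of the GSTU1 and PPO results that it moved. Since whole leaves were sequenced, fewer cells of a type and less RNA per cell cannot be told apart.

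Per transcript length, GSTU1 was far more abundant than the others. On the FPKM scale (fragments scaled by transcript length and library size, from the deposited group tables) its level ran from 215 to 925 over the 24 libraries, with a median of 417. Its mean of 441 FPKM ranked 100 among the 24111 genes listed in all 8 group tables. GMP ran from 25.3 to 55.4 FPKM with a median of 29.6, and PPO from 12.3 to 69.8 FPKM with a median of 24.7. Their mean levels of 32.0 and 28.5 FPKM stood above those of 84.7% and 82.6% of the genes. GSTU1 exceeded GMP in 24 of 24 libraries, by 3.87-fold to 36.5-fold, and PPO in 24 of 24, by 6.66-fold to 33.0-fold. PPO exceeded GMP in 7 of 24 libraries, so the order of these genes depended on the library. The counts behind these levels ran from 8940 to 31026 for GSTU1, from 1496 to 5283 for GMP and from 965 to 4806 for PPO. Counting alone gives a coefficient of variation of at most 0.929% for GSTU1 and 2.64% for PPO, below the spread seen in each of their groups, and of 1.77% to 2.40% for GMP, which is near the spread of its tightest groups.

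**Figure D1:**
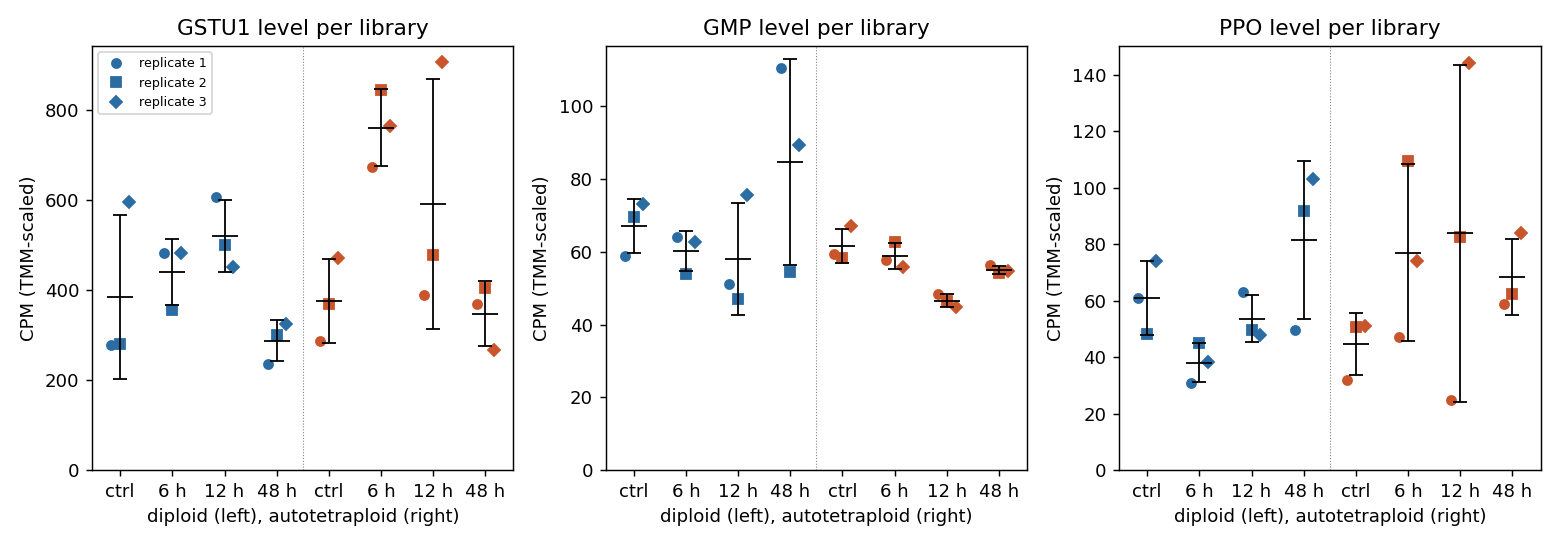
Level of GSTU1, GMP and PPO in each of the 24 libraries, in TMM-scaled CPM, by drought time in diploid (blue) and autotetraploid (orange) leaves. Symbols mark the replicate, horizontal bars the mean and whiskers the SD of 3 libraries; the 3 autotetraploid 6 h libraries hold GSTU1 at 673 to 844 CPM, above all 3 of their controls.

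GSTU1 rose 2.02-fold in the autotetraploid at 6 h of drought. From 12 to 48 h it fell in the mean of both ploidies, a contrast added after results were seen that called 41% of all genes. Neither ploidy passed by itself in that step. In the diploid no difference from the control passed the test, with group means between 288 and 519 CPM.

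In the diploid controls GSTU1 stood at 278, 279 and 594 CPM, and in the diploid at 6 h at 483, 356 and 483 CPM. It stood at 606, 501 and 450 CPM at 12 h, and at 237, 300.5 and 325 CPM at 48 h. Replicate 3 of the diploid controls was thus as high as the drought libraries of 6 and 12 h, while the 48 h libraries all lay below those of 12 h. In the autotetraploid the controls held 287, 369 and 472 CPM, and the 6 h libraries 673, 844 and 764 CPM. At 12 h they held 388, 478 and 906 CPM, and at 48 h 370, 405 and 266 CPM. The 6 h libraries lay above every control, and at 12 h only replicate 3 stood high. Group means (SD, n = 3) were 384 ± 182, 441 ± 73.0, 519 ± 79.5 and 288 ± 45.8 CPM in the diploid and 376 ± 92.6, 760 ± 85.7, 591 ± 277 and 347 ± 72.0 CPM in the autotetraploid, each from control to 48 h. Ordered by mean, the autotetraploid at 6 h led, followed by the autotetraploid at 12 h and the diploid at 12 h, 6 h and control, and then by the autotetraploid control and the 48 h groups of the autotetraploid and the diploid. Each group's range overlapped that of the next in this order, and the highest mean was 2.64-fold the lowest.

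The rise of GSTU1 in the autotetraploid at 6 h came to 1.02 ± 0.31 on the log2 scale (SE, 95% interval 0.36 to 1.67, adjusted p = 0.022 by edgeR's quasi-likelihood test). This was the single call among the 18 member results against the controls, in a comparison in which 25.1% of all genes tested passed and in which GSTU1 held rank 5090 by p. The libraries of both groups did not overlap, which held in the same direction for 21.5% of genes. The call held under all 9 other analyses (adjusted p from 0.005 to 0.024), and 3 of the 6 fits that left out a library lost it, namely those lacking control replicate 1 (0.87), control replicate 2 (1.01) and 6 h replicate 2 (0.94), with adjusted p-values up to 0.11. At 12 h in the autotetraploid it stood 0.65 ± 0.31 above the control (log2, SE, adjusted p = 0.13), and without replicate 3 of that group it was 0.21. At 48 h it was −0.12, with an interval of −0.76 to 0.53 (adjusted p = 0.86), and its sign turned without autotetraploid control replicate 3 (0.11) or autotetraploid 48 h replicate 3 (0.07).

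The diploid values against the control were 0.20 at 6 h, 0.43 at 12 h and −0.42 at 48 h on the log2 scale, each with an SE of 0.31 (adjusted p = 0.72, adjusted p = 0.32 and adjusted p = 0.51). Their 95% intervals, −0.45 to 0.85, −0.21 to 1.08 and −1.07 to 0.23, include a 2-fold rise at 12 h and a 2-fold fall at 48 h. The high control library bore on each of them. Without diploid control replicate 3 the values were 0.66, 0.90 and 0.04, and the one at 12 h then passed (adjusted p = 0.033). Leaving out the other controls moved them the other way, and none was called. They were 0.01, 0.26 and −0.60 without diploid control replicate 1, and 0.02, 0.26 and −0.61 without replicate 2. The difference between the ploidies in the 6 h response was 0.82 (interval −0.10 to 1.74) and did not pass (adjusted p = 0.81), so the call in the autotetraploid alone is no evidence that its response differed.

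Between 12 and 48 h GSTU1 was lower in both ploidies, with differences on the log2 scale of −0.85 ± 0.31 in the diploid (SE, adjusted p = 0.051) and −0.77 ± 0.31 in the autotetraploid (SE, adjusted p = 0.07). Neither passed by itself. In the diploid the 3 libraries of 48 h lay below the 3 of 12 h, as they did for 22.3% of all genes tested. Of 9 other analyses, 7 called this diploid difference (adjusted p from 0.013 to 0.051 over the 9) and 5 the autotetraploid one (adjusted p from 0.022 to 0.19). Leaving out a library gave no call in the diploid (−0.97 to −0.73). In the autotetraploid the value was −0.997 without 12 h replicate 1, which was called, and −0.32 without 12 h replicate 3. The mean of both ploidies, a contrast added after these values were seen, fell by 0.81 ± 0.22 on the log2 scale (SE, adjusted p = 0.0061), beside 41.0% of genes called. That call held in all 9 other analyses and without each of the 12 libraries in turn, at −0.98 to −0.59. The like mean at 6 h against the controls was 0.61 ± 0.22 (SE, adjusted p = 0.037, beside 36.1% of genes called). It held in all 9 other analyses, and 8 of the 12 fits without a library ended it, those without diploid control replicates 1 (0.52) and 2 (0.52), diploid 6 h replicates 1 (0.57) and 3 (0.58), autotetraploid control replicates 1 (0.53) and 2 (0.605) and autotetraploid 6 h replicates 2 (0.57) and 3 (0.61). At 12 h the mean was 0.54 ± 0.22 (SE, adjusted p = 0.052, beside 43.4%), called in 6 of 9 other analyses.

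Of the members, GMP had the narrowest range of group means. These spanned 1.82-fold, from 46.6 CPM in the autotetraploid at 12 h to 84.8 CPM in the diploid at 48 h. The spans were 2.64-fold for GSTU1 and 2.20-fold for PPO. Single libraries spanned 2.46-fold for GMP. At the threshold GMP differed from its control in no drought group. Of its 18 contrasts within and between the ploidies, 1 was called, a rise from 12 to 48 h in the diploid.

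In the diploid GMP stood at 58.8, 69.7 and 73.1 CPM in the controls and at 64.2, 54.0 and 62.6 CPM at 6 h. It stood at 51.2, 47.1 and 75.7 CPM at 12 h and at 110.5, 54.4 and 89.5 CPM at 48 h. The last group held both the highest level of the series and, in replicate 2, one below every diploid control. Autotetraploid leaves gave 59.5, 58.4 and 67.1 CPM in the controls, 57.9, 62.8 and 55.8 CPM at 6 h, 48.4, 46.5 and 44.9 CPM at 12 h, and 56.4, 54.3 and 54.7 CPM at 48 h. There the 12 h libraries lay below all other autotetraploid libraries in TMM-scaled CPM. The gap to the 48 h libraries was lost on the FPKM scale, with 25.4 to 28.0 FPKM at 12 h and 26.9 to 27.7 FPKM at 48 h, and with library totals alone. Group means (SD, n = 3) were 67.2 ± 7.49, 60.3 ± 5.50, 58.0 ± 15.4 and 84.8 ± 28.3 CPM in the diploid and 61.7 ± 4.77, 58.8 ± 3.60, 46.6 ± 1.73 and 55.2 ± 1.08 CPM in the autotetraploid, from control to 48 h. Ordered by mean, the diploid at 48 h was followed by the diploid control, the autotetraploid control, the diploid and autotetraploid at 6 h, the diploid at 12 h and the autotetraploid at 48 and 12 h. Neighbouring groups overlapped in this order, except that the autotetraploid at 12 h lay apart from the autotetraploid at 48 h on this scale.

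From 12 to 48 h in the diploid GMP rose by 0.55 ± 0.19 on the log2 scale (SE, interval 0.15 to 0.95, adjusted p = 0.039), in a comparison in which 26.2% of all genes tested passed. The ranges of these groups overlapped. The call ended without diploid 12 h replicate 1 (0.46) or 2 (0.42) or without diploid 48 h replicate 1 (0.31) or 3 (0.49), and in 6 of 9 other analyses. In the autotetraploid the same step gave 0.24 ± 0.19 (SE, adjusted p = 0.37), and its libraries did not overlap in TMM-scaled CPM, as for 19.5% of genes in that direction, but overlapped in FPKM and with library totals alone. The mean of both ploidies was 0.40 ± 0.13 (SE, adjusted p = 0.024), a contrast added after the values were seen and called in 4 of 9 other analyses. It ended without diploid 12 h replicates 1 (0.35) or 2 (0.33) or diploid 48 h replicate 1 (0.28). Levels at 12 h depended on scaling, since library totals alone moved every gene's diploid step from 12 to 48 h by −0.15 and the autotetraploid one by −0.21. Without the TMM factors GMP stood at 51.0 CPM in the autotetraploid at 12 h in place of 46.6, and the diploid step was 0.40 (adjusted p = 0.12).

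Against the controls GMP differed in the diploid by −0.16, −0.21 and 0.34 on the log2 scale at 6, 12 and 48 h, each with an SE of 0.19 (adjusted p = 0.63, adjusted p = 0.44 and adjusted p = 0.36). In the autotetraploid the values were −0.07, −0.40 and −0.16 with the same SE (adjusted p = 0.85, adjusted p = 0.12 and adjusted p = 0.64). At 12 h its 3 libraries lay below the 3 controls, as for 21.2% of genes, and at 48 h likewise, as for 16.6%. In a model of those 6 libraries alone the 12 h value, −0.40, passed (adjusted p = 0.025). It was the only 1 of 9 other analyses to pass, and their values ran from −0.40 to −0.21 (adjusted p up to 0.37). No fit that left out a library called it (−0.43 to −0.32). The intervals over the 6 comparisons with the controls lay between −0.80 and 0.73, so a change of 2-fold fell outside every one of them. The 12 h libraries of the autotetraploid also lay below those of 6 h, as for 13.5% of genes (log2 fold change −0.34, adjusted p = 0.35).

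Taken over all groups, PPO varied most of the 3 genes between libraries of a group. In single groups it did not always lead: GSTU1 varied more in the diploid controls and the autotetraploid at 48 h. GMP varied more in the diploid at 12 h. None of the 18 PPO contrasts was called by edgeR, and DESeq2 and limma called none either. In edgeR 2 had an unadjusted p under 0.05, the ploidy difference at 6 h and the difference in response at 6 h. In these 7.43% and 6.39% of all genes tested had such a p.

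Diploid controls held PPO at 61.0, 48.1 and 74.3 CPM and the diploid 6 h libraries at 31.0, 45.0 and 38.4 CPM. At 12 h the diploid gave 63.2, 49.9 and 47.8 CPM, and at 48 h 49.8, 91.8 and 103 CPM. All diploid 6 h libraries lay below the controls and below the 12 h libraries. The autotetraploid controls held 31.9, 50.7 and 51.2 CPM and the 6 h libraries 47.2, 110 and 74.2 CPM. The 12 h libraries held 24.9, 82.6 and 144 CPM, the lowest and the highest PPO level of the series within a single group, and the 48 h libraries 59.0, 62.3 and 84.1 CPM. At 48 h every autotetraploid library lay above the controls. Group means (SD, n = 3) were 61.1 ± 13.1, 38.1 ± 7.01, 53.6 ± 8.37 and 81.6 ± 28.1 CPM in the diploid and 44.6 ± 11, 77.0 ± 31.3, 83.9 ± 59.8 and 68.5 ± 13.6 CPM in the autotetraploid, from control to 48 h. Ordered by mean, the autotetraploid at 12 h stood first, followed by the diploid at 48 h, the autotetraploid at 6 and 48 h, the diploid control and 12 h, the autotetraploid control and the diploid at 6 h, and each group overlapped the next.

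In the diploid PPO differed from the control by −0.68 ± 0.44 at 6 h (SE, adjusted p = 0.31), by −0.19 ± 0.44 at 12 h (adjusted p = 0.80) and by 0.42 ± 0.44 at 48 h (adjusted p = 0.68) on the log2 scale. At 6 h the groups did not overlap, as for 17.9% of genes in that direction. In the autotetraploid the values were 0.79 ± 0.44 at 6 h (SE, adjusted p = 0.22), 0.91 ± 0.44 at 12 h (adjusted p = 0.13) and 0.62 ± 0.44 at 48 h (adjusted p = 0.39). The 48 h libraries did not overlap the controls, as for 16.5% of genes. Intervals were wide: at 6 h they ran from −1.61 to 0.24 in the diploid and from −0.14 to 1.71 in the autotetraploid, so that changes of more than 2-fold lay within them. The 12 h value of the autotetraploid rested on single libraries, since it was 1.35 without replicate 1, which was called (adjusted p = 0.0085), and 0.27 without replicate 3. The response at 6 h, with a lower mean in the diploid and a higher one in the autotetraploid, differed between the ploidies by 1.47 ± 0.62 (SE, interval 0.16 to 2.78), and did not pass (adjusted p = 0.77).

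The time steps of PPO did not pass either. From 6 to 12 h its log2 fold change was 0.49 in the diploid (adjusted p = 0.62), where the libraries did not overlap, as for 13% of genes, and 0.12 in the autotetraploid (adjusted p = 0.94). From 12 to 48 h it was 0.61 (adjusted p = 0.35) and −0.29 (adjusted p = 0.68). Without autotetraploid 12 h replicate 3 the autotetraploid steps became −0.52 and 0.35. From 6 to 12 h GSTU1 changed by 0.24 in the diploid (adjusted p = 0.78) and −0.36 in the autotetraploid (adjusted p = 0.60), and GMP by −0.06 in the diploid (adjusted p = 0.94). The GSTU1 step in the autotetraploid was −0.81 without autotetraploid 12 h replicate 3.

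The members' calls stand beside the following shares of all genes. Against the controls, 0 of 3 members passed in the diploid at 6, 12 and 48 h, where 21.3%, 30.2% and 2.01% of all genes tested did. The autotetraploid had 1 of 3 at 6 h, beside 25.1%, and 0 of 3 at 12 and 48 h, beside 29.6% and 13.5%. From 6 to 12 h, 0 of 3 passed in either ploidy, beside 8.06% in the diploid and 8.05% in the autotetraploid, and from 12 to 48 h 1 of 3 and 0 of 3, beside 26.2% and 30.4%. Of all 54 member results within and between the ploidies, 2 were called by edgeR and 11 had an unadjusted p under 0.05. Over the 18 contrasts behind them, edgeR called 0% to 30.4% of all genes tested. From 4.69% to 39.7% of genes had an unadjusted p under 0.05, so these member counts are not read as an excess. These comparisons share libraries, so their values are not independent of each other. Means of both ploidies at 48 h against the controls called 0 of 3 members, beside 21.4% of genes, and those from 6 to 12 h 0 of 3, beside 16.3%. A test of any difference among the 8 groups, added after results were seen, gave adjusted p = 0.014 for GSTU1, adjusted p = 0.034 for GMP and adjusted p = 0.24 for PPO, beside 47.3% of genes called. Over the 24 fits that left out a library the GMP call was lost in 15 (adjusted p up to 0.16, without diploid 48 h replicate 1), and it was lost with upper quartile scaling (adjusted p = 0.051) and library totals alone (adjusted p = 0.085). PPO passed without autotetraploid 12 h replicate 1 (adjusted p = 0.017).

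**Figure D2:**
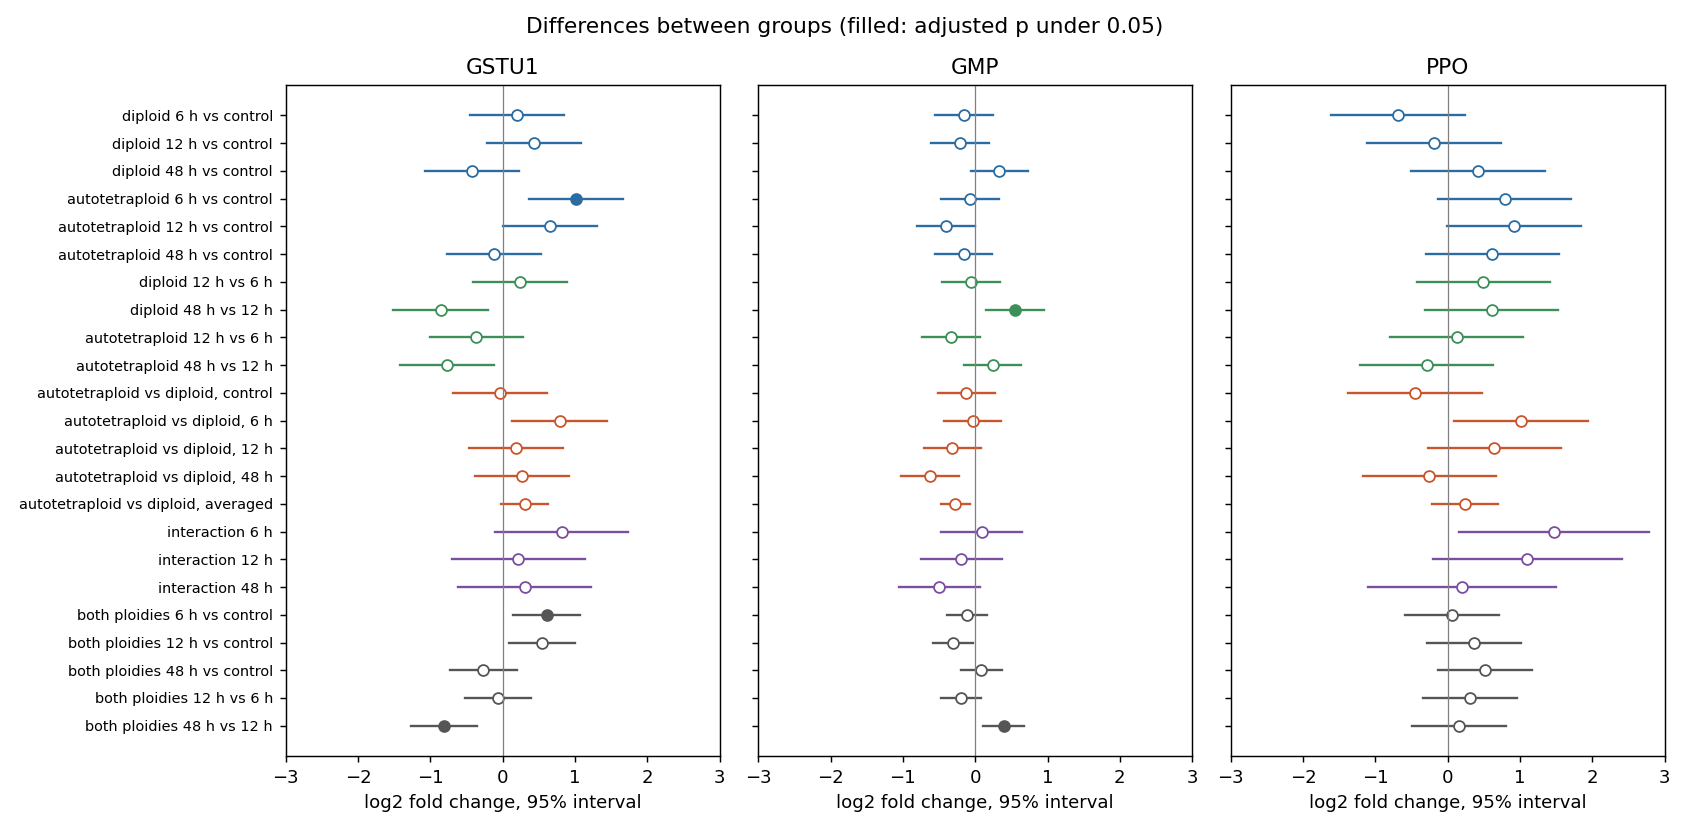
Log2 fold change of GSTU1, GMP and PPO in each comparison, with its 95% interval; filled points passed an adjusted p of 0.05, and colours separate drought, time step, ploidy, interaction and averaged contrasts. Filled points are GSTU1 in the autotetraploid at 6 h (1.02), GMP from 12 to 48 h in the diploid (0.55) and 3 averages over both ploidies.

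The title of the series asks about the better drought tolerance of the autotetraploid, and the members were therefore compared between ploidies under each treatment. In the controls they differed little in mean, with log2 differences (autotetraploid over diploid) of −0.03 for GSTU1, −0.12 for GMP and −0.46 for PPO. The intervals of −0.68 to 0.62, −0.52 to 0.27 and −1.38 to 0.47 show that only for GMP and GSTU1 a difference of 2-fold lay outside. At 6 h all 3 autotetraploid libraries lay above all 3 diploid ones for GSTU1 (difference 0.79 ± 0.31, SE, adjusted p = 0.60) and for PPO (1.01 ± 0.44, SE, adjusted p = 0.65). Such separation was seen in 7.90% of genes in that direction. At 12 h the differences were 0.19 for GSTU1, −0.32 for GMP and 0.65 for PPO (adjusted p = 1.0, adjusted p = 0.97 and adjusted p = 0.98). The first changed sign (−0.26), and the last fell to 0.00, without autotetraploid 12 h replicate 3. At 48 h GMP had the smallest p of the ploidy comparisons, with a difference of −0.62 ± 0.19 (SE, interval −1.02 to −0.22, adjusted p = 0.29). The ranges of these groups overlapped. Without diploid 48 h replicate 2, the low library of its group, the GMP difference was −0.85 and passed (adjusted p = 0.036). Without diploid 48 h replicate 1, the high one, it was −0.37 (adjusted p = 0.86). Of the 6 fits that left out a library 1 was called, and of 9 other analyses 0 were. GSTU1 and PPO differed by 0.27 and −0.25 at 48 h (adjusted p = 0.91 and adjusted p = 0.96).

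Averaged over the 4 treatments GMP was lower in the autotetraploid by 0.27 ± 0.09 on the log2 scale (a difference of −0.27, SE, adjusted p = 0.19), and GSTU1 and PPO differed by 0.30 ± 0.15 and 0.24 ± 0.22 (SE, adjusted p = 0.40 and adjusted p = 0.70). Of the 15 member results between ploidies, 0 were called by edgeR, DESeq2 or limma, while 4 had an unadjusted p under 0.05 in edgeR. The background was as low: edgeR called 0% of genes in the controls and 0% at 6 h, 0.0194% at 12 h, 0.139% at 48 h and 0.403% in the average. The 4 results were those of GSTU1 and PPO at 6 h and of GMP at 48 h and in the average. At an unadjusted p under 0.05 edgeR had 2230 genes (8.63%) in the controls and 1919 (7.43%) at 6 h, and DESeq2 called 175 and 115. The edgeR shares were 5.31% at 12 h, 8.34% at 48 h and 13.8% in the average. For the difference between ploidies in the drought response, edgeR called 0% of genes at 6, 12 and 48 h. It had 1650, 1211 and 1626 genes (6.39%, 4.69% and 6.3%) at an unadjusted p under 0.05, and DESeq2 called 98, 80 and 162. None of the 9 member results was called there by edgeR, DESeq2 or limma, and 1 had an unadjusted p under 0.05, that of PPO at 6 h. The remaining GSTU1 values were 0.22 at 12 h and 0.30 at 48 h, the GMP values 0.09, −0.19 and −0.50 from 6 to 48 h, and the PPO values 1.10 and 0.20 at 12 and 48 h. Without autotetraploid 12 h replicate 3 the 12 h values became −0.23 for GSTU1 and 0.46 for PPO.

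The 3 genes differed in how far libraries of a group lay apart. The SD within groups on the log2(CPM + 1) scale was 0.39 for GSTU1, 0.24 for GMP and 0.58 for PPO, beside a median of 0.18 over the 16383 genes with a mean of at least 5 CPM. These values exceeded those of 84.0%, 66.4% and 91.4% of the genes. The share of the variance that lay between the 8 groups was 63.8% for GSTU1, close to the median gene at 64.9%, 54.0% for GMP and 33.6% for PPO, the last above only 12.4% of genes. GMP was tighter in the autotetraploid: its coefficient of variation was 1.96% to 7.73% in the 4 autotetraploid groups and 9.13% to 33.4% in the 4 diploid groups. All diploid values lay above all autotetraploid ones, a pattern held by 1.10% of the 16383 genes, with 1.59% showing the reverse. It was noticed in the data, was given no test, and was seen on the FPKM scale too (1.52% to 6.49% against 11.7% to 32.4%). For GSTU1 the coefficients ran from 15.3% to 47.4% in the diploid and from 11.3% to 46.8% in the autotetraploid, and for PPO from 15.6% to 34.4% and from 19.9% to 71.2%, so these overlapped. In the autotetraploid at 48 h the GMP value of 1.96% was no larger than the 2.24% that counting alone gives.

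**Figure D3:**
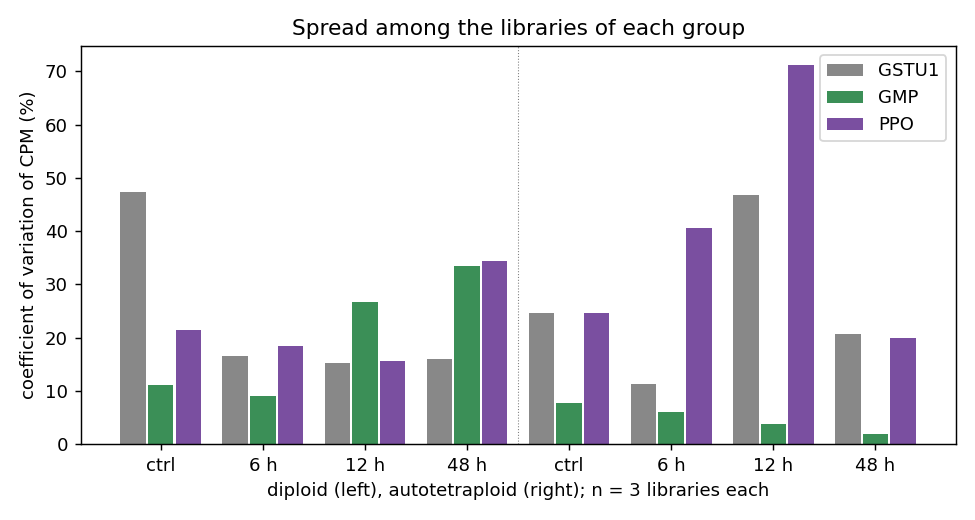
Coefficient of variation of CPM (in percent, n = 3 libraries) of GSTU1, GMP and PPO in each group, diploid on the left and autotetraploid on the right. GMP bars are all below 8% in the autotetraploid (highest 7.73%) and all above 9% in the diploid (lowest 9.13%), and the tallest bar is PPO in the autotetraploid at 12 h at 71.2%.

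Within groups, libraries with more GSTU1 tended to hold more PPO. After subtracting the group mean from each log2(CPM + 1) value, Pearson's r of GSTU1 and PPO over the 24 libraries was 0.623 (permutation p = 0.0188, two-sided, permuting libraries within groups) and Spearman's rho 0.508 (permutation p = 0.0372). Adjusted over the 3 pairs of members, neither passed (permutation test, adjusted p = 0.0564 and adjusted p = 0.112). The deviations had the same sign in 17 of 24 libraries. In the autotetraploid at 48 h every library had opposite signs, with 0.11, 0.24 and −0.36 for GSTU1 beside −0.19, −0.12 and 0.31 for PPO. Diploid 6 h replicates 1 and 2 also had opposite signs. Leaving out the 2 libraries farthest from the median of GSTU1, autotetraploid 12 h replicate 3 and diploid control replicate 3, gave r = 0.512, and leaving out the autotetraploid 12 h group gave 0.445. Leaving out single libraries gave r between 0.445 and 0.706, and without diploid 6 h replicate 1 or 2 or any autotetraploid 48 h library the adjusted value fell under the threshold (permutation test, lowest adjusted p = 0.0142). For GSTU1 and GMP r was −0.01 (permutation p = 0.961) and rho 0.194 (permutation p = 0.404), with r = −0.07 without the same 2 libraries. PPO and GMP gave r = −0.229 (permutation p = 0.304) and rho = −0.10 (permutation p = 0.687), with r = −0.265 without autotetraploid 12 h replicates 1 and 3. Adjusted over the 3 pairs, these 4 values lay between 0.456 and 0.961.

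**Figure D4:**
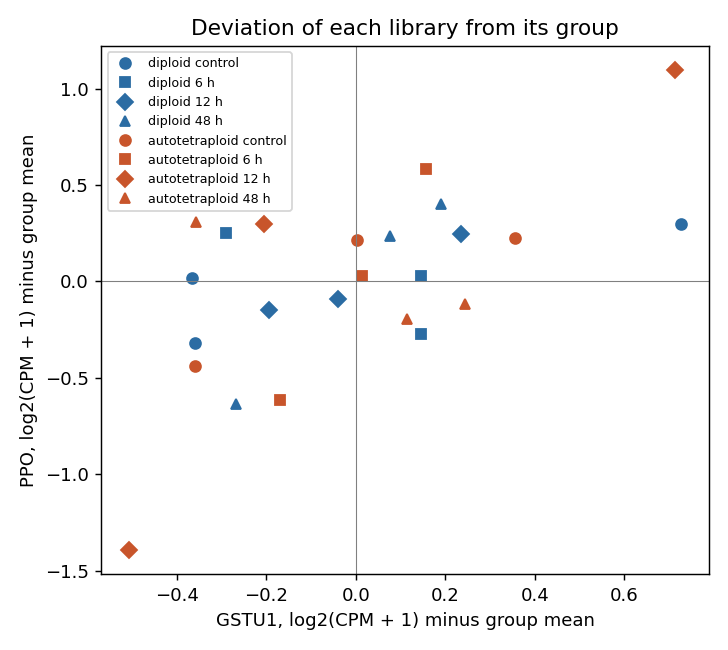
Deviation of each of the 24 libraries from its group mean, on the log2(CPM + 1) scale, for GSTU1 (horizontal) and PPO (vertical); colour marks the ploidy and symbol the treatment. The points at the lower left and upper right ends are autotetraploid 12 h replicates 1 and 3, and r over all points was 0.623.

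Other genes followed the members closely over the libraries. Among 16382 genes with a mean of at least 5 CPM, the 3 most like GSTU1 by Pearson's r of log2(CPM + 1) over the 24 libraries were LOC107428849 (0.952), LOC107413046 (0.950) and LOC107427482 (0.949). Over the 8 group means r was 0.969, 0.984 and 0.996. LOC107427482 had the widest course of the 3, from 32.0 CPM in the diploid at 48 h to 119 CPM in the autotetraploid at 6 h, the groups in which GSTU1 too was lowest and highest. LOC107428849 kept within 65.0 to 78.9 CPM between these same groups, so likeness in shape did not mean likeness in size of change. For GMP the most alike were LOC107412204 (0.890), LOC107427462 (0.757) and LOC107419478 (0.744), with r over group means of 0.915, 0.650 and 0.773. LOC107412204 ran from 44.4 CPM in the autotetraploid at 12 h to 272 CPM in the diploid at 48 h, the lowest and the highest GMP group. PPO was followed less closely, by LOC107425264 (0.826), LOC107420428 (0.758) and LOC107412571 (0.740), with 0.837, 0.757 and 0.785 over group means. LOC107420428 shared with PPO its lowest mean in the diploid at 6 h, at 3.54 CPM beside 8.86 to 12.8 CPM in the other groups. These genes were picked as the highest of many and share library and scaling with the members, so r describes these libraries only. The sources used here give them no names. The members themselves were not among each other's closest: PPO held place 4651 in likeness to GSTU1, with r = 0.324, and GMP place 12201, with r = −0.361.

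**Figure D5:**
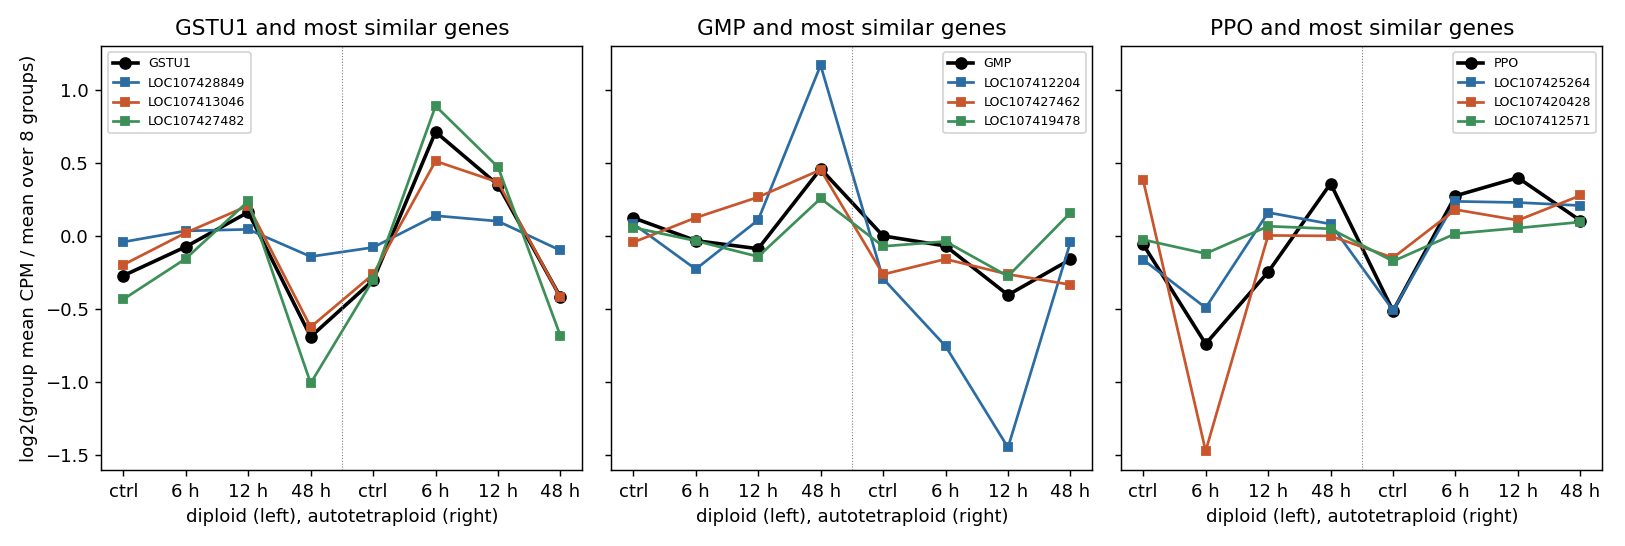
Group means of each member (black) and of the 3 genes most like it, as log2 of the mean CPM over the mean of the 8 groups, diploid on the left and autotetraploid on the right of each panel. GSTU1 and LOC107427482 both peak in the autotetraploid at 6 h and are lowest in the diploid at 48 h, while LOC107428849 follows with a smaller amplitude.

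Of the ascorbate, glutathione, phenylpropanoid and hydrogen peroxide genes listed for comparison, only catalase (LOC107419839), which breaks down hydrogen peroxide, could be identified by name. It was lower at 12 h, by log2 fold changes of −0.85 in the diploid and −0.81 in the autotetraploid (adjusted p = 5.8e-05 and adjusted p = 9.4e-05), in comparisons that called 30.2% and 29.6% of all genes. At 48 h the values were 0.42 in the diploid (adjusted p = 0.092, beside 2.01% of genes called) and 0.74 in the autotetraploid (adjusted p = 0.0015, beside 13.5%), and the difference between them was not tested. At 6 h, where GSTU1 was raised in the autotetraploid, catalase stood at 0.03 in the diploid and 0.05 in the autotetraploid (adjusted p = 0.90 and adjusted p = 0.83).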

How the data were processed

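Total RNA of leaves was sequenced in 24 libraries. HISAT2 and StringTie were used per the submitters' processing notes, which list no versions. For the genome build, the annotation and the strand setting, no value is given in the sources used here. The authors deposited raw counts per gene and library, whole numbers and not normalized per the file headers, and FPKM values in 1 table per group. The deposited FPKM unit was read from the values, which list genes reaching 0.1 in at least 1 library of the group. Reads of near-identical gene copies may have been split between them, which matters for large families such as glutathione transferases.

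Counts were filtered (filterByExpr), scaled by TMM and fitted in R 4.3.3 with edgeR 4.0.16, 1 mean per group over all 24 libraries (16 residual degrees of freedom). The 18 contrasts had quasi-likelihood tests, Benjamini-Hochberg adjusted across 25829 genes, and were called at an adjusted p under 0.05. Standard errors are the fold change over the square root of F; 95% intervals use them. DESeq2 1.42.0 and limma 3.58.1, the latter on log2(FPKM + 0.1) or log2(FPKM + 1), were alternatives, with 3 other scalings, no filter, fewer groups, the replicate block and each library left out. The edgeR step was run on simulated data for the autotetraploid at 6 h against its control and for the ploidies at 48 h. Those counts were drawn from the fitted model itself, so they cannot show how well it fits these libraries.

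The members and lists were chosen with earlier results of these data known. Genes most alike were the 3 with the highest r among genes with a mean of at least 5 CPM. Relations used 100000 permutations. Same-group library pairs differed well beyond counting noise (chi-square per degree of freedom 38.3 to 110 over 24 pairs), so none was counted as a duplicate. The 5 averages over both ploidies and the test among 8 groups were added after results were seen. Planned gene families by protein similarity and pathway lists by description were not evaluated, since no protein sequences or descriptions were at hand, and no sequences are printed for the same reason. Of 29293 LOC identifiers, 19767 were in the RefSeq table.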

Additional observations from a re-analysis of the deposited data

How the results depend on the processing

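Values are log2 fold changes unless named otherwise, and the cause of each change was not tested except where stated. Library totals alone, without scaling factors, shift all genes alike, by −0.21 to 0.15 over the comparisons. Depth limits the spread of GMP in its tightest groups, where counting error is of the same size. Each group has 3 libraries, which limits every interval. For GSTU1 from 12 to 48 h in the diploid, upper quartile scaling gave −0.90, library totals −1, DESeq2 −0.849, limma −0.992 and −0.99 (offsets 0.1 and 1) and the model of the compared groups −0.853, all called. The same step in the autotetraploid was called at −0.826, −0.966, −0.756, −0.905 and −0.903 under the first 5 of these. GSTU1 at 12 h over both ploidies was called at 0.586, 0.677, 0.54, 0.713 and 0.711, in the same order. GMP from 12 to 48 h in the diploid was not called with upper quartile scaling (0.505), library totals (0.401), no filter (0.525), limma (0.38 and 0.371) or compared groups only (0.547, fewer samples), nor was its mean over both ploidies with upper quartile scaling (0.341), library totals (0.218), limma (0.206 and 0.201) or compared groups only (0.41). GMP at 12 h in the autotetraploid was called with compared groups only (−0.404).

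Signs turned for uncalled values. GMP from 6 to 12 h in the diploid became 0.048 with library totals and 0.00933 and 0.00952 with limma. GSTU1 between control ploidies became 0.0527 and 0.0524 with limma. GSTU1 from 6 to 12 h over both ploidies became 0.0546 with library totals and 0.0115 and 0.0114 with limma, PPO from 12 to 48 h over both became −0.016 with library totals, and the within-group r of GSTU1 and GMP became 2.32e-05.

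Replicate numbers did not pair the libraries: deviations of 30 same-number pairs correlated at −0.104 to 0.0859, 0 of them over 0.1, and 6 of 24 libraries correlated best with their own number. With the replicate block GSTU1 from 12 to 48 h in the diploid (−0.887) and at 12 h over both ploidies (0.567) were called, and the block changed no other call.

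Leaving out 1 library at a time gave these ranges where a call or sign changed. For GSTU1 they were 0.259 to 0.904 at 12 h and −0.613 to 0.0446 at 48 h in the diploid, 0.865 to 1.22 at 6 h and −0.25 to 0.108 at 48 h in the autotetraploid, and −0.997 to −0.321 from 12 to 48 h there. Between ploidies GSTU1 gave −0.232 to 0.424 in controls and −0.261 to 0.415 at 12 h, with −0.232 to 0.446 and −0.134 to 0.522 for the differences in response at 12 and 48 h. Over both ploidies it gave 0.518 to 0.841 at 6 h, 0.321 to 0.788 at 12 h and −0.286 to 0.0516 from 6 to 12 h. For GMP the ranges were −0.109 to 0.00511 at 6 h in the autotetraploid, −0.284 to 0.0742 from 6 to 12 h and 0.309 to 0.761 from 12 to 48 h in the diploid. Between ploidies they were −0.106 to 0.0225 at 6 h and −0.849 to −0.37 at 48 h, with −0.322 to 0.048 for the difference in response at 12 h. Over both ploidies GMP gave −0.416 to −0.243 at 12 h, −0.0142 to 0.196 at 48 h and 0.28 to 0.493 from 12 to 48 h. For PPO they were 0.269 to 1.35 at 12 h, −0.519 to 0.559 from 6 to 12 h and −0.729 to 0.349 from 12 to 48 h in the autotetraploid, and −0.0375 to 0.432 for the difference in response at 48 h. Over both ploidies PPO gave −0.114 to 0.185 at 6 h, −0.0133 to 0.526 from 6 to 12 h and −0.0622 to 0.477 from 12 to 48 h. The within-group r ran from 0.445 to 0.706 for GSTU1 and PPO and from −0.124 to 0.132 for GSTU1 and GMP. The planned family comparison by protein identity was not run.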
